A study of Mus musculus with 2 samples.

Results

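Forkhead genes encode transcription factors that share a winged-helix DNA-binding domain, and they were taken here as the genes whose symbol is Fox, a subfamily letter from a to s, a number and at most 1 further letter. The deposited expression table held 44 such genes among 24015. The series compared cultured mouse embryonic fibroblasts, connective tissue cells grown from embryos, of genotype Adar2+/+ and Adar2-/-, with 1 poly(A)+ RNA-seq library each. Adar2 encodes an enzyme that turns adenosine into inosine in double-stranded RNA. Both cultures grew in DMEM with fetal bovine serum and antibiotics. The labels do not name the strain, the deleted exon, the passage or the number of embryos behind a culture. Each genotype has a single library, so the spread between cultures is unknown for every difference below. Levels are in RPKM (reads per kilobase of transcript, divided by the library's depth), and the reads behind each level were recovered from the table.

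Some forkhead factors mark places in the embryo. The FoxF and FoxL1 factors belong to gut and lung mesenchyme, FoxC factors to paraxial and head mesoderm and vessels, FoxD1 to kidney stroma, and FoxA factors to endoderm. Others work in most cells: FoxO factors carry out the response to low insulin and growth factor signalling, FoxM1 drives genes of mitosis, and FoxK, FoxJ2, FoxJ3, FoxN2, FoxN3, FoxP1 and FoxP4 are widely expressed. The family was therefore split into 12 broadly expressed members and 32 regional ones, those known from restricted tissues or domains. The split was made with earlier results of these data known, so contrasts between broad and regional members below are descriptions and not tests.

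The transcript of the targeted gene, listed as Adarb1, was not lower in the library labelled as the knockout. It stood at 18.4 RPKM (1155 reads) in the WT-labelled and 25.8 RPKM (1633 reads) in the KO-labelled culture, so all directions below depend on these labels. The libraries held 9446911 and 9546997 reads behind the RPKM values. All 12 genes of a fibroblast list were above 1 RPKM, with summed levels of 570.1 and 612.7 RPKM, WT-labelled first as in every pair below, and 10 of them within 2-fold. The ends of the fibroblast list were Dcn (29.7 and 12.3 RPKM) and Thy1 (9.40 and 72.1 RPKM). Of all 13867 genes that reached 1 RPKM in a library, 12219 lay within 2-fold, so the count of 10 lies near the background. Fn1 of this list (96.2 and 97.9 RPKM) lay near the highest levels of any gene, 107.0 and 124.3 RPKM. A ceiling described below may compress differences between such genes, and its part was not tested. Of 4 smooth muscle genes, Cnn1 had 31.9 and 19.9 RPKM, Acta2 66.1 and 71.3 RPKM, and Myh11 and Des were below 1 RPKM in both libraries. Of 8 epithelial markers 4 were below 1 RPKM in both libraries. The others were Krt19 at 59.4 and 18.8 RPKM, Cdh1 (75 and 3 reads), Cldn7 (17 and 3 reads) and, the other way, Krt8 (1 and 18 reads). Of 6 endothelial markers 5 were below 1 RPKM in both libraries, as were 5 of 7 blood and 4 of 7 neural markers. The endothelial gene above it was Tek (106 and 6 reads). The blood genes above it were Csf1r (64 and 3 reads) and, the other way, Cd68 (62 and 90 reads). The neural list held Sox2 at 24.2 and 0.171 RPKM, Tubb3 at 20.1 and 15.7 RPKM and Nes, the other way, at 14.3 and 38.4 RPKM. The part of such markers in the results was not tested.

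All 12 broadly expressed members had at least 10 RPKM in both libraries, against 8 of the 32 regional members in each library. Of all 24015 genes, 9848 had at least 10 RPKM in the WT-labelled and 9767 in the KO-labelled culture. The broad members spanned 21.3 to 43.9 RPKM in the WT-labelled culture and 18.1 to 43.7 RPKM in the KO-labelled culture. Regional members that reached 1 RPKM in a library numbered 14, and the lowest level among them was 0.218 RPKM for WT-labelled cells and 0.0148 RPKM for KO-labelled cells. The summed level of the family was close in both libraries, at 586.9 and 608.3 RPKM. The regional members gave 218.5 and 234.4 RPKM of it and the broad members 368.4 and 373.8 RPKM.

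**Figure D1:**
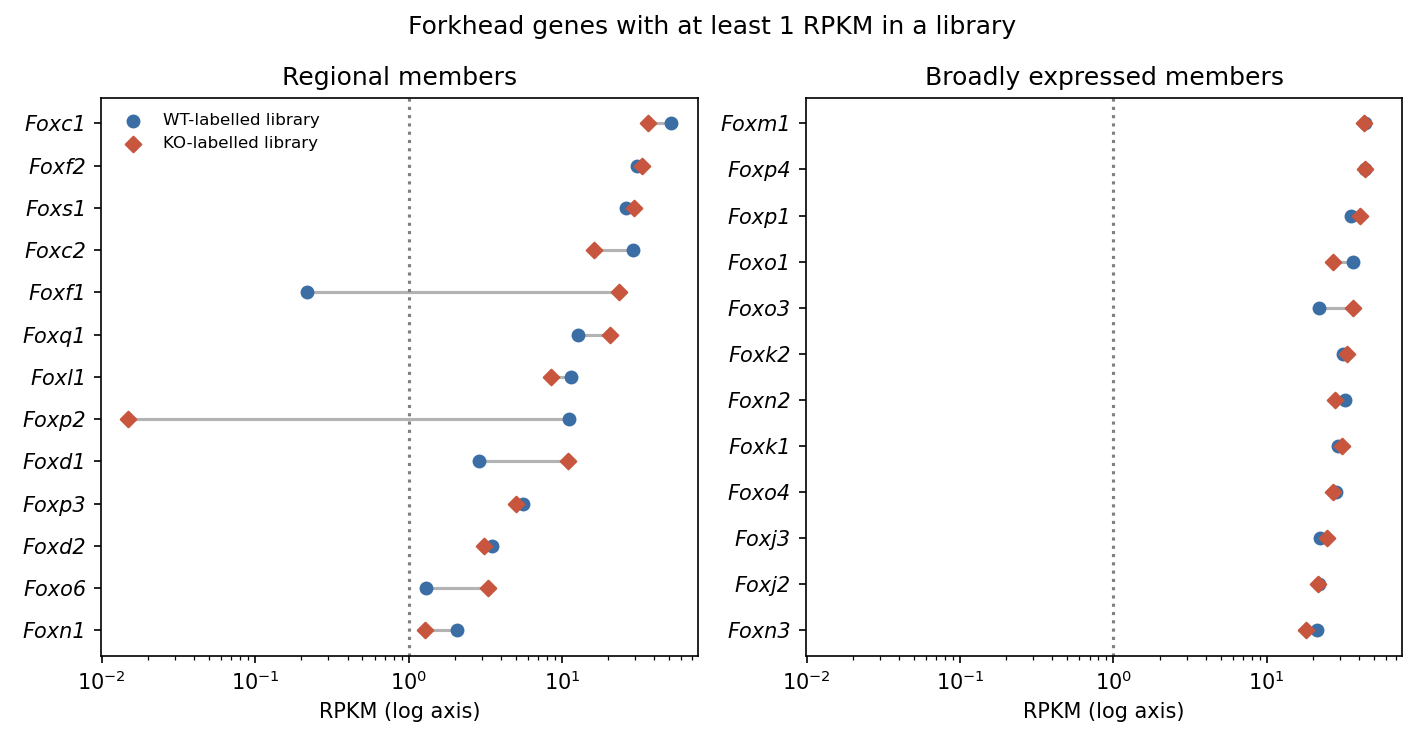
RPKM on a log axis of 25 forkhead genes with at least 1 RPKM (dotted line) in a library, with circles for the WT-labelled and diamonds for the KO-labelled culture. Foxf1 (0.218 and 23.5 RPKM) and Foxp2 (11.1 and 0.0148 RPKM) span the widest gaps, and the 12 broadly expressed members all lie above 10 RPKM in both libraries.

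Of the 26 members that reached 1 RPKM in a library, 2 lay at least 2-fold higher in the KO-labelled culture and 1 lay that far below, on the scale log2((KO + 1)/(WT + 1)), which understates differences of low genes. Among all 13867 genes compared in this way, 4.42% lay 2-fold or more higher and 7.46% 2-fold or more lower. The higher members were Foxf1 and Foxd1, and the lower one was Foxp2. All 3 are regional members. In RNA from a whole culture, fewer cells that express a gene and less of its RNA per cell cannot be told apart. The 12 broad members lay within 2-fold, between -0.42 and 0.72. The median log2 ratio was -0.0077 over the 14 regional members, -0.012 over the 12 broad members and 0.0053 over all compared genes. The median size of the log2 ratio, without its sign, was 0.49 for the regional and 0.12 for the broad members, beside 0.21 for all compared genes. Regional members were also lower in level than broad ones (medians of 11.3 and 13.5 RPKM against 30.4 and 29.3 RPKM), and the part of level in that gap was not tested.

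Counting error was small for most members. For each member, the exact 95% interval of its log2 reads ratio, scaled to the library totals and conditional on the summed reads, lay above 0 for 8 members, below 0 for 8 and across 0 for 10. Over the 13578 compared genes with a single solution for their reads, the interval lay above 0 in 27.7% and below 0 in 27.1%. The interval holds no error between cultures. The authors' log2 fold changes rest on another scaling, with a value of 0.037 for genes without a read. Foxf2, with a log2 reads ratio of 0.12 by library totals, stood at 0.17 there. The same shift would carry the lower interval ends of Foxf2 (-0.030), Foxk1 (-0.020), Foxk2 (-0.026) and Foxs1 (-0.034) above 0. It would bring the upper end of Foxn3 (-0.053) close to 0. The counts of 8, 8 and 10 therefore hold for the scaling by library totals. By the authors' deposited table, Foxf1 and Foxd1 had a GFOLD value, a log2 fold change shrunken toward 0, of at least 1, as did 3.21% of compared genes. Foxp2 had one of at most -1 in the authors' deposited table, as did 5.6% of compared genes.

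**Figure D2:**
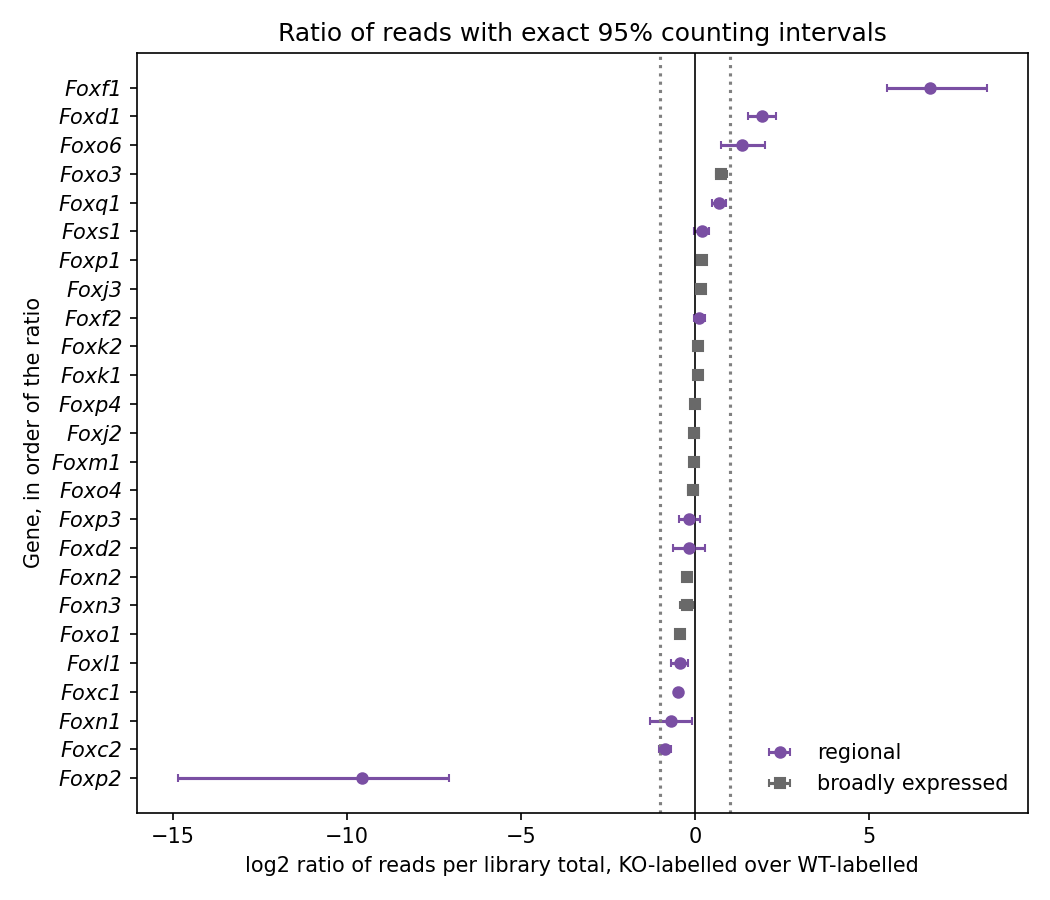
Log2 ratio of reads per library total (KO-labelled over WT-labelled) for 25 compared forkhead genes, with exact 95% counting intervals as bars and 2-fold differences as dotted lines. Foxf1, Foxd1 and Foxp2 lie beyond 2-fold with their whole interval, and the intervals of 10 members cross 0.

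Foxf1, a factor of the mesenchyme around gut and lung and a target of hedgehog signalling, stood at 0.218 RPKM (5 reads) in the WT-labelled culture. In the KO-labelled culture it stood at 23.5 RPKM (543 reads), a 107.5-fold higher level. The log2 ratio of reads was 6.75 (95% interval 5.52 to 8.38), and on the scale of RPKM + 1 it was the 9th highest of all compared genes. Foxf1 thus had next to no reads in the WT-labelled culture and the 15th highest level of the family in the KO-labelled culture.

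Its paralog Foxf2, which acts in gut, palate and brain vessel mesenchyme, was well expressed in both libraries, at 30.7 RPKM (687 reads) and 33.4 RPKM (755 reads). The interval of its log2 ratio of reads, -0.03 to 0.27, included 0 by library totals. Foxf1 thus made up 0.705% of the summed FoxF level in the WT-labelled culture and 41.2% in the KO-labelled culture, and that sum was 31.0 and 56.9 RPKM. Foxl1, which marks mesenchymal cells under the gut epithelium and lies close to Foxf1, was lower in the KO-labelled culture, at 11.5 RPKM (322 reads) and 8.49 RPKM (240 reads), with an interval of -0.69 to -0.19. The difference of Foxl1 was small beside that of Foxf1 and in the other direction.

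Foxf1, Foxc2 and Foxl1 are neighbours on chromosome 8, with Mthfsd between Foxf1 and Foxc2 in the RefSeq gene order (GRCm38.p6, used for the order alone). Fendrr, the noncoding RNA gene next to Foxf1 and known from the lateral mesoderm of mouse embryos, had 0.0445 RPKM (1 read) in the WT-labelled culture. In the KO-labelled culture Fendrr had 6.43 RPKM (146 reads), with an interval of the log2 reads ratio of 4.67 to 12.49. Foxf1 and Fendrr were thus both near 0 in the WT-labelled culture and both present in the KO-labelled culture. On the other side of Foxf1, Mthfsd differed little, at 21.7 RPKM (502 reads) and 25.3 RPKM (591 reads), with an interval of 0.05 to 0.39. Cox4i1, beyond Irf8 on the Fendrr side, had 42.1 and 41.0 RPKM. Of the 4 compared neighbours that are not forkhead genes (Cox4i1, Fendrr, Mthfsd and Fbxo31), Fendrr was the 1 at least 2-fold apart. Over all compared genes 4.42% lay at least 2-fold higher and 7.46% lower, and few of any 4 genes would then be 2-fold apart.

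Foxc2, the third forkhead gene of that group and a factor of somites and lymphatic vessels, was lower in the KO-labelled culture. It had 29.2 RPKM (751 reads) and 16.1 RPKM (419 reads), with an interval of -1.03 to -0.68 on the log2 ratio of reads. Its paralog Foxc1, a factor of head mesenchyme, eye and skull, had 51.0 RPKM (1923 reads) and 36.4 RPKM (1387 reads), with an interval of -0.59 to -0.39. Both FoxC genes had the lower value in the KO-labelled culture and lay within 2-fold on the scale of RPKM + 1, Foxc2 at -0.82 and Foxc1 at -0.48. Their summed level was 80.2 and 52.5 RPKM. Foxc1 had the highest level of the family in the WT-labelled culture and the 6th highest in the KO-labelled culture. Foxc1 had 0.482 reads per base there, and no gene with a single read solution exceeded 0.997 reads per base in that library or 1.19 in the KO-labelled one. Differences between abundant genes may be compressed by that ceiling, and its part was not tested.

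Foxc1 lies in a second group, on chromosome 13, with Foxf2 and Foxq1. Foxq1, a factor of hair shaft and stomach lining, was higher in the KO-labelled culture, at 12.7 RPKM (337 reads) and 20.4 RPKM (546 reads), with an interval of 0.48 to 0.88. The 3 forkhead genes of this group therefore differed in 3 ways: Foxq1 higher, Foxf2 with an interval across 0 by library totals, and Foxc1 lower in the KO-labelled culture. Of the 4 compared neighbours (Exoc2, 1700018A04Rik, Gmds and Wrnip1) none was 2-fold apart. With 4.42% of all compared genes at least 2-fold higher and 7.46% lower, such a count lies near the background. Gmds, the next gene after Foxc1, had 35.0 and 40.7 RPKM.

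**Figure D3:**
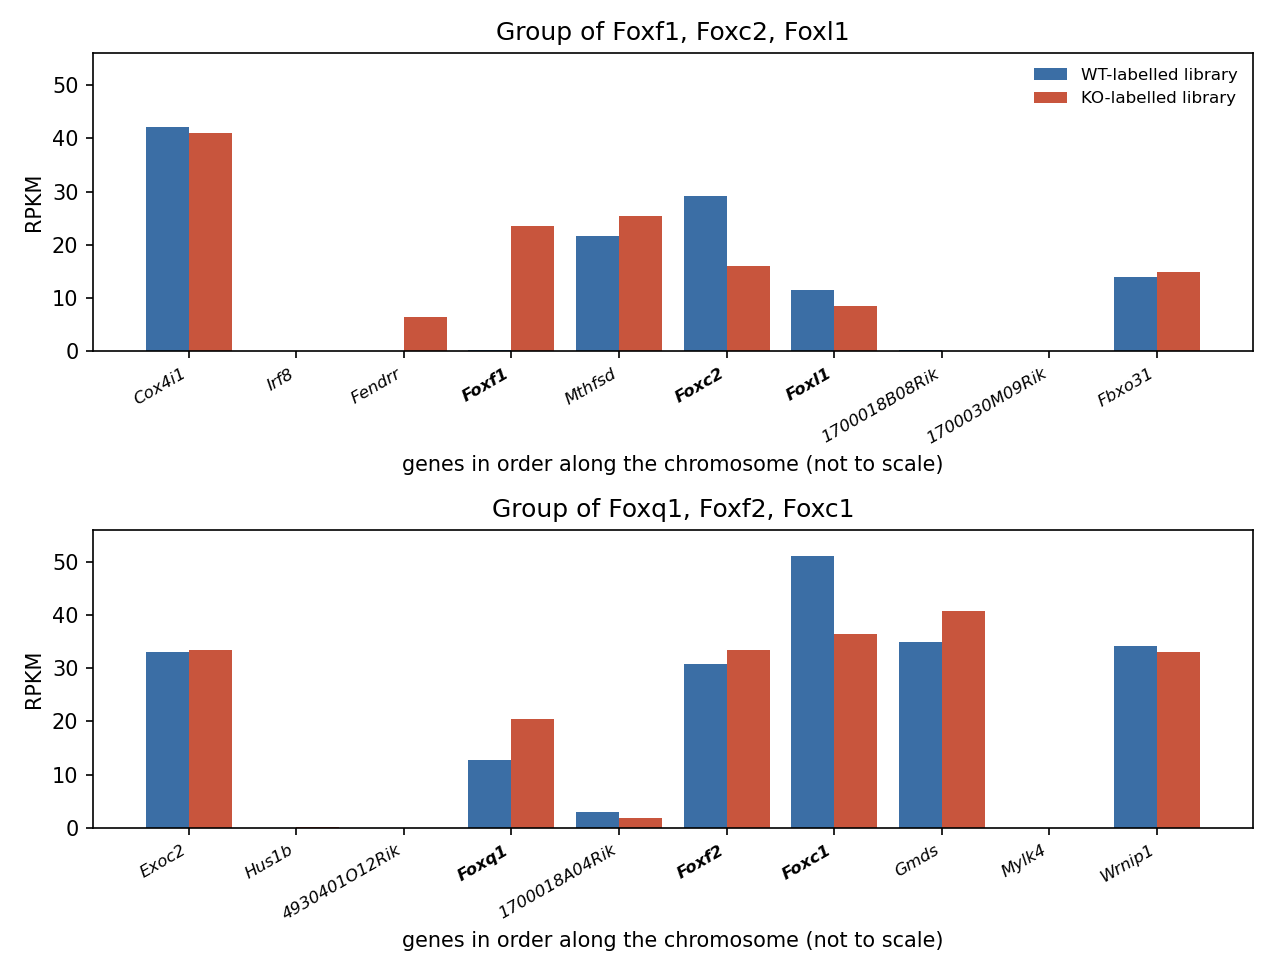
RPKM of the genes around the Foxf1, Foxc2, Foxl1 group (top) and the Foxq1, Foxf2, Foxc1 group (bottom), in chromosomal order and not to scale, with 1 bar per library and forkhead genes in bold. Foxf1 and Fendrr have visible bars in the KO-labelled culture alone, while Foxc2, Foxl1 and Foxc1 have the taller bar in the WT-labelled culture.

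Foxd1, a factor of the stromal progenitors of the kidney, was the second member at least 2-fold higher. It had 2.88 RPKM (67 reads) in the WT-labelled culture and 10.9 RPKM (255 reads) in the KO-labelled culture, a 3.77-fold higher level, with an interval of 1.52 to 2.32 on the log2 ratio of reads. Foxd2, also of the kidney and of cranial mesenchyme, was low in both libraries, at 3.52 RPKM (87 reads) and 3.12 RPKM (78 reads), with an interval of -0.63 to 0.28. The intervals of Foxd1 and Foxd2 did not overlap. Foxd2os, the noncoding neighbour of Foxd2, had 7.29 and 6.19 RPKM. Of the other 4 genes of the kidney list, Pax2 and Tcf21 had no read, Osr1 had 18.4 and 16.5 RPKM, and Six2, a gene of nephron progenitors, had 20.8 RPKM (414 reads) in the WT-labelled culture and no read in the KO-labelled culture.

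The promoters of Foxd1 and Foxd2 are shown because these paralogs differed in how far their libraries lay apart. RefSeq windows (GRCm38.p6) from 250 bases before to 50 bases after the transcript start were at hand for 28 of the 44 members and not for Foxf1 or Foxp2. Capitals mark CCAAT, a box bound by NF-Y, on either strand. The Foxd1 window holds 1 such box and the Foxd2 window none, and neither holds TATAAA.
Foxd1, chr13:98353995-98354294, plus strand: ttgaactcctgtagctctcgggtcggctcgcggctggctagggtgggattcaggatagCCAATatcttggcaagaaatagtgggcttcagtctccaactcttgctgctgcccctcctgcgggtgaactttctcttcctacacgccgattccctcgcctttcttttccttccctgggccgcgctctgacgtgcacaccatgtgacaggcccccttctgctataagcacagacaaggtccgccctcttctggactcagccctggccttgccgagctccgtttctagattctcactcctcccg
Foxd2, chr4:114908849-114909148, minus strand: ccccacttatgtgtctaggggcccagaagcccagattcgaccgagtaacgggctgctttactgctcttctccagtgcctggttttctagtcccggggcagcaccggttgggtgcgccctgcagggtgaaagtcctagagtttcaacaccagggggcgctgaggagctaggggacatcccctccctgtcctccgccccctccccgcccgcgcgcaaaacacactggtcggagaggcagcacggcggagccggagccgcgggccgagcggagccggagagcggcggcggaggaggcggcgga
The Foxd1 window has 15 CpG dinucleotides and 57.7% G and C, and the Foxd2 window has 26 and 67.7%.

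Foxp2, a factor of brain circuits and of lung and gut epithelium, was the 1 member at least 2-fold lower. It had 11.1 RPKM (743 reads) in the WT-labelled culture and 0.0148 RPKM (1 read) in the KO-labelled culture. The log2 ratio of reads was -9.55, with a wide interval of -14.86 to -7.07, since a single read stands behind the lower value. On the scale of RPKM + 1 Foxp2 was the 63rd lowest of all compared genes. Foxp2 was present in the WT-labelled culture and all but absent from the reads of the KO-labelled culture.

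The other FoxP genes did not follow it. Foxp1, a broad member with roles in heart, lung and lymphocytes, had 35.7 RPKM (2521 reads) and 40.5 RPKM (2891 reads), with an interval of 0.10 to 0.26. Foxp4, its close relative, had 43.8 RPKM (1667 reads) and 43.7 RPKM (1681 reads), with an interval of -0.10 to 0.10. Foxp1 and Foxp4 together with Foxm1 were among the 5 highest members of the family in each library. The share of Foxp2 in the summed FoxP level was 11.6% in the WT-labelled and 0.0166% in the KO-labelled culture, and the sum itself was 96.2 and 89.2 RPKM.

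Foxp3, the lineage factor of regulatory T cells, was listed at 5.61 RPKM (208 reads) and 4.99 RPKM (187 reads), with an interval of -0.46 to 0.12. Exons of Foxp3 overlap exons of Ccdc22 (26.7 and 24.7 RPKM) and Ppp1r3f (5.30 and 4.47 RPKM) on the opposite strand in the GENCODE annotation of GRCm38. No source used here says whether the counting used strand, so reads of Foxp3 and of these genes cannot be told apart. Of 6 genes of regulatory T cells, Ikzf2 had 4.62 RPKM (411 reads) and 4.55 RPKM (409 reads), and 5 were below 1 RPKM. Cd3e had 1 read and 0 reads, Il2ra 1 read and 0 reads, Cd4 1 and 3 reads, and Ctla4 and Cd3g no read. The pan-leukocyte gene Ptprc had 4 and 0 reads. These T cell genes, except Ptprc, were listed after the value of Foxp3 had been seen.

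**Figure D4:**
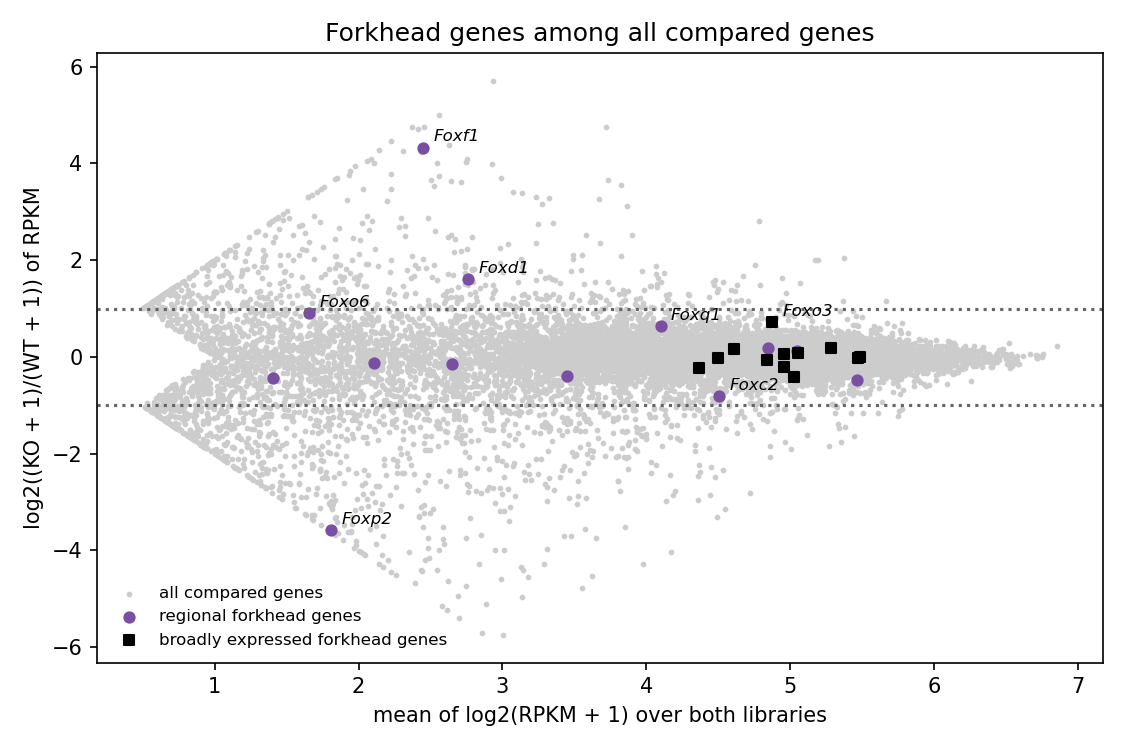
Each gene's log2((KO + 1)/(WT + 1)) of RPKM against its mean log2(RPKM + 1), for all 13867 compared genes (grey) with the regional (circles) and broadly expressed (squares) forkhead genes, and dotted lines at 2-fold. The 12 squares lie between the dotted lines, and Foxf1, Foxd1 and Foxp2 lie outside them.

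FoxO genes differed among themselves while their summed level was close, at 87.9 and 94.1 RPKM. Foxo1 had the lower value in the KO-labelled culture, at 36.6 RPKM (1921 reads) and 27.1 RPKM (1437 reads), with an interval of -0.53 to -0.33. Foxo3 had the higher value there, at 21.8 RPKM (594 reads) and 36.6 RPKM (1010 reads), with an interval of 0.60 to 0.90. Foxo1 was thus the leading FoxO gene in the WT-labelled culture (41.7% of the sum) and Foxo3 in the KO-labelled culture (38.9%). Foxo4 was close, at 28.2 RPKM (843 reads) and 27.1 RPKM (818 reads), with an interval of -0.20 to 0.08. Foxo6, a member known mainly from brain, was low, at 1.30 RPKM (31 reads) and 3.31 RPKM (80 reads). Its level was 2.55-fold higher in the KO-labelled culture (interval 0.74 to 2.0 on the log2 ratio of reads), and on the scale of RPKM + 1 its log2 ratio of 0.91 stayed under 2-fold.

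The promoters of Foxo1 and Foxo3 are shown because these paralogs differed in opposite directions. Capitals again mark CCAAT on either strand, which the Foxo1 window holds 3 times and the Foxo3 window not at all.
Foxo1, chr3:52268087-52268386, plus strand: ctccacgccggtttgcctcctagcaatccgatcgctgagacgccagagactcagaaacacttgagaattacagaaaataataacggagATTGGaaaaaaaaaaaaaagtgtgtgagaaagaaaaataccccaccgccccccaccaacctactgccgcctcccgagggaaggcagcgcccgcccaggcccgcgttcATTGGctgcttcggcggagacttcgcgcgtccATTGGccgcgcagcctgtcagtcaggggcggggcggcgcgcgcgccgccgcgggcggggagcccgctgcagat
Foxo3, chr10:42276646-42276945, minus strand: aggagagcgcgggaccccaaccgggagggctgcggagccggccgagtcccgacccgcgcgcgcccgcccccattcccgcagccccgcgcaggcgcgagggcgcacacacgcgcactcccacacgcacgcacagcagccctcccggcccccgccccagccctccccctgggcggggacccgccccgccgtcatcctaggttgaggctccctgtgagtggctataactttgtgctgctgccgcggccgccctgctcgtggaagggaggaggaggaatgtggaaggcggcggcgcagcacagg
The Foxo1 window has 31 CpG dinucleotides and the Foxo3 window 35. Over the 17 windows of 14 compared members, CCAAT was found in 41.2% and TATAAA in 5.88%, and over all 32851 windows of the table in 37.4% and 13.6%. The forkhead core GTAAACA was found in none of the 17 windows and in 3.65% of all windows. Both strands were searched and each motif was counted on its own, so that 1 stretch can count for more than 1 motif. The compared members had a median of 27 CpG dinucleotides a window, beside 7 in all windows. Over all 33 forkhead windows the median was 22, and over 16 windows of 14 members below 1 RPKM in both libraries it was 14.5. A match describes letters and not a bound site.

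**Figure D5:**
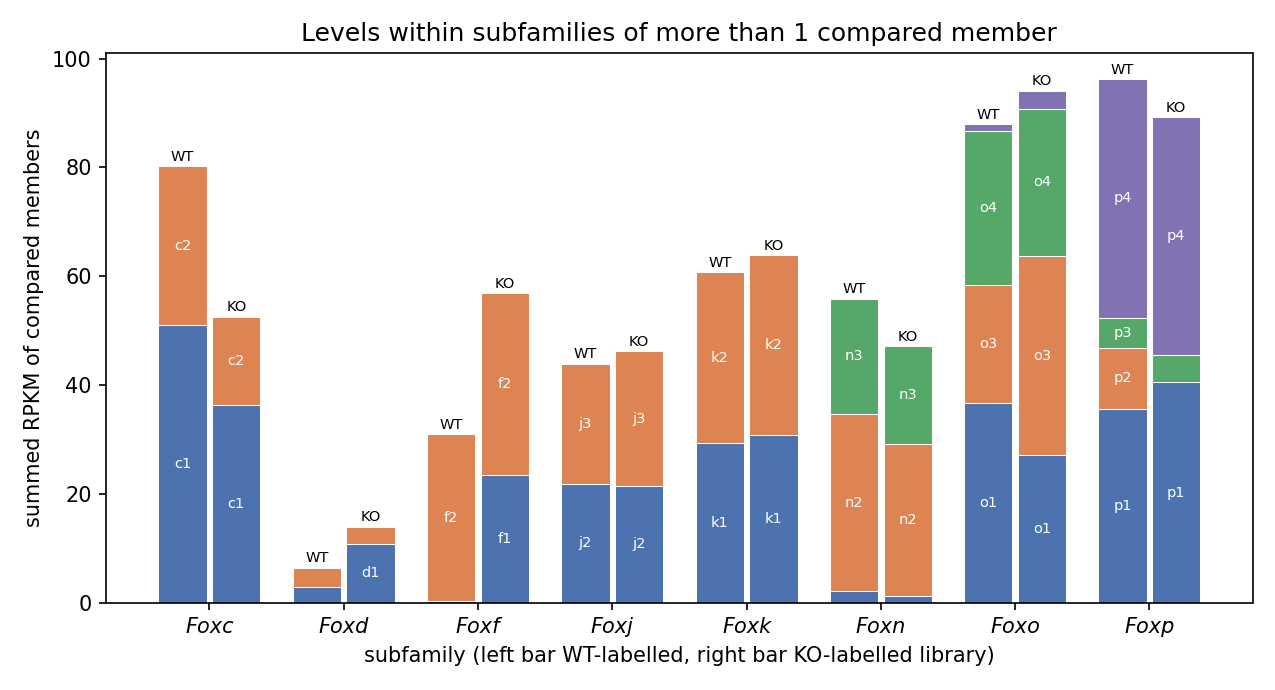
Summed RPKM of the compared members of each forkhead subfamily with more than 1 of them, split by gene, with the WT-labelled culture on the left and the KO-labelled culture on the right of each pair. The FoxF sum (31.0 and 56.9 RPKM) holds Foxf1 as a visible part in the KO-labelled culture alone, the FoxO sum (87.9 and 94.1 RPKM) is led by Foxo1 on the left and Foxo3 on the right, and the FoxK bars are alike.

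The remaining broad members lay within 2-fold. Foxk1 and Foxk2, which act in metabolism and autophagy, had 29.3 and 30.7 RPKM and 31.4 and 33.1 RPKM, and both intervals included 0 by library totals. Foxm1, the regulator of mitotic genes, had 43.9 RPKM (1809 reads) and 42.9 RPKM (1786 reads), with an interval of -0.13 to 0.06, and ranked second in the family in both libraries. Foxj2 had 21.8 and 21.4 RPKM with an interval across 0. For Foxj3 the values were 22.1 and 24.8 RPKM (interval 0.04 to 0.29). Foxn2 (32.5 and 27.8 RPKM) and Foxn3 (21.3 and 18.1 RPKM) were lower in the KO-labelled culture with intervals of -0.33 to -0.12 and -0.42 to -0.05. The sizes of these differences, between -0.23 and 0.16 on the scale of RPKM + 1, lay near the median size over all compared genes or under it.

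Foxs1, a regional member known from pericytes and sensory neurons, had 26.0 RPKM (322 reads) and 29.6 RPKM (370 reads), with an interval of -0.03 to 0.41. Foxn1, the factor of thymic epithelium and hair whose loss makes nude mice, was low, at 2.08 RPKM (64 reads) and 1.28 RPKM (40 reads), with an interval of -1.30 to -0.10. Of 5 thymic epithelium genes listed afterwards, 4 were below 1 RPKM in both libraries, and Ccl25 had 8.97 and 6.58 RPKM.

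The other 18 members, all regional, stayed below 1 RPKM in both libraries. The endoderm factor gene Foxa3 had 0.415 RPKM (8 reads) and 0.0514 RPKM (1 read), and Foxa1 had 1 read and 0 reads. Foxh1, a partner of Smad proteins in Nodal signalling, had 7 and 5 reads. Foxj1, which controls motile cilia, had 10 and 12 reads. No read was counted in either library for Foxa2, Foxb1, Foxb2, Foxd3, Foxd4, Foxe1, Foxe3, Foxi1, Foxi2, Foxi3, Foxl2, Foxn4, Foxr1 and Foxr2. A count of 0 allows up to 3 reads a library, by counting error alone. Just inside the level of 1 RPKM lay Foxn1 and Foxo6, and just outside it Foxh1 (0.542 and 0.383 RPKM) and Foxj1 (0.411 and 0.488 RPKM). Besides the FoxA genes, 5 of the 7 genes of an endoderm list had no read, Afp had 5 and 0 reads, and Gata4 had 0.0624 and 5.12 RPKM.

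Genes of the mesoderm in which Foxf1 acts went in both directions. Of 15 factors of visceral and lateral plate mesoderm 7 were compared, 4 at least 2-fold higher in the KO-labelled culture, 1 at least 2-fold lower and 2 within 2-fold, with a median log2 ratio of 1.01. The higher ones were Hand2 (0 and 72 reads), Gata4 (2 and 166 reads), Gata6 (2.72 and 11.9 RPKM) and Meis1 (6.28 and 13.6 RPKM). The lower one was the hindlimb factor gene Tbx4, with 34.7 RPKM (1069 reads) and no read. The cardiac and gut factor genes Hand1, Gata5, Barx1, Nkx2-3 and Tcf21 had no read in either library. All of these shares stand beside the 4.42% and 7.46% of all compared genes, and the list was chosen with earlier results of these data known.

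The hedgehog pathway, which acts upstream of Foxf1, Foxf2 and Foxl1 in mesenchyme, had 0 of 9 compared members 2-fold apart, with a median log2 ratio of 0.14. With 4.42% of all compared genes at least 2-fold higher and 7.46% lower, a count of 0 of 9 lies near the background. The ligand gene Shh had no read, and Ihh had 7 reads in each library. The receptor gene Ptch1 (37.6 and 41.4 RPKM) and the effector gene Gli1 (11.7 and 14.6 RPKM), both induced by the pathway, lay within 2-fold. Their intervals of the log2 ratio of reads, 0.04 to 0.24 and 0.12 to 0.50, lay above 0. Hhip, also of this list but below 1 RPKM and so not compared, had 8 and 47 reads, with an interval of 1.44 to 3.83. The ends among genes with at least 10 RPKM were Gli2 (13.2 and 21.3 RPKM) and the co-receptor gene Boc (35.1 and 23.4 RPKM).

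Genes known as FOXO targets had 1 of 18 compared members at least 2-fold higher, 0 lower and a median log2 ratio of 0.05. The member was Fbxo32, which encodes the ubiquitin ligase atrogin (7.88 and 22.1 RPKM, 516 and 1466 reads), and the other end was the superoxide dismutase gene Sod2 (44.7 and 35.6 RPKM). Kinases and regulators of FOXO had 0 of 10 members 2-fold apart (median 0.15), from Akt2 (29.8 and 26.4 RPKM) to the deacetylase gene Sirt1 (22.9 and 30.9 RPKM). Genes known as FOXM1 targets had 0 of 14 members 2-fold apart (median -0.012), from Cenpa (38.0 and 33.2 RPKM) to Birc5 (17.9 and 23.9 RPKM). In the FOXO list Cdkn1a, just under 2-fold, had 30.1 and 59.3 RPKM. The background over all compared genes was 4.42% for a 2-fold rise and 7.46% for a 2-fold drop, and in lists of this size such counts lie near those shares.

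No edited site was listed in a forkhead gene, among 654 sites in the WT-labelled and 110 in the KO-labelled culture. Fendrr had none either. A site missing from those lists is not thereby shown to be unedited, since each listed site has at least 2 edited reads and the depth at other positions is not given.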

How the data were processed

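Expression values are RPKM, deposited by the authors as 1 column per library in a table laid out like GFOLD output. It also holds, per the file headers, the authors' log2 fold change, a GFOLD value and an empirical FDR (a p-value type column), which stood at 1 throughout and was not used. The editing lists deposited by the authors give the count of reads over each site and the edited fraction, per the file headers. STAR 2.4.0d, SAMtools and the build mm9 are listed, with no role, in the submitters' processing notes. The gene annotation, counting rule and strand setting were not given in the sources used here. Both libraries were grouped by the genotype in the labels.

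In the authors' table a gene at 0 in a library has a log2 fold change of reads plus 1, which gave whole reads (tolerance 0.1), library totals and gene lengths. All 44 forkhead genes and 96.4% of the 17981 genes above 0 had a single solution. The recovery was run on data simulated from the genes with a single solution, with their recovered lengths and totals. That run checks the code and cannot show that the recovered reads are those the authors counted. A gene was compared at 1 RPKM or more in a library, with a pseudocount of 1 RPKM and a log2 threshold of 1. No p-value was computed. Intervals are Clopper-Pearson at 95% and cover counting error only. Without molecular identifiers, reads may be copies of 1 molecule.

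Values were given for 25 of the 26 forkhead genes at 1 RPKM or more; the other is counted with the family and not reported here. The rule also named the ends at 10 RPKM or more of each other list, which are given for the pathway lists and some of the marker lists. Neighbours are genes of the table within 3 places of a compared member. Members and lists were chosen with earlier results of these data known. Python 3.11.15, pandas 2.3.3, SciPy 1.17.1 and Matplotlib 3.10.9 were used.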

Additional observations from a re-analysis of the deposited data

How the results depend on the processing

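With a pseudocount of 0.1 RPKM, 3 forkhead genes in place of 2 were at least 2-fold higher in the KO-labelled culture, Foxo6 being the added one. The counts of 2 higher and 1 lower held with no filter on low values, with at least 5 RPKM in a library, with log2 ratios centred on the median of all compared genes, and with the authors' GFOLD value. The median log2 ratio of the regional members ranged from -0.09 without a filter to 0.12 at 5 RPKM or more, over 18 and 11 members in place of 14, with a change of sign. That of the broad members ranged from -0.0175 to 0. Gene by gene, no called member changed direction; the smaller pseudocount moved 1 of 25 reported members (Foxf1, from a log2 ratio of 4.33 to 6.21), and the GFOLD value moved 6 of 25, by more than the counting interval of the reads ratio extends from that ratio on the same side. The 6 moved by the GFOLD value were all lower in the KO-labelled culture, and their GFOLD values were smaller in size. Foxc1 went from -0.48 to -0.32, Foxc2 from -0.82 to -0.60 and Foxo1 from -0.42 to -0.26. Foxl1 went from -0.40 to -0.10, Foxn2 from -0.22 to -0.05 and Foxn3 from -0.23 to 0. Foxn1, also lower by its interval, had a GFOLD value of 0. No paired analysis was possible because each genotype has 1 library. Sites of a minimum depth were not compared, since no site was listed in these genes. Depth limits the lowest members: 18 of 44 had at most 12 reads a library.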

Other observations

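Around the forkhead genes, 77 compared genes that are not forkhead genes lay within 3 places of a reported member, of which 5 were 2-fold or more above and 8 as far below in the KO-labelled culture, with a median log2 ratio of -0.014. Over all compared genes the shares were 4.42% above and 7.46% below. The genes named here were chosen after their values were seen. Near Foxp2, Tfec, a gene of the MITF family, had 4.52 RPKM (76 reads) in the WT-labelled culture and no read in the KO-labelled culture. Between Foxp2 and Tfec, Mdfic had 39.4 and 35.1 RPKM. Beyond Tfec, the focal adhesion gene Tes was higher in the KO-labelled culture, at 29.2 and 39.5 RPKM (interval 0.29 to 0.58). On the other side of Foxp2, Ppp1r3a, below 1 RPKM and so not compared, had 17 and 0 reads. Beyond Ppp1r3a, 1110019D14Rik had 7.49 and 4.55 RPKM and 2610001J05Rik had 37.0 and 26.8 RPKM. Trabd2b, 2 places from Foxd2 with Gm12830 between them, which encodes a protease that acts on Wnt proteins, had 18.6 RPKM (1164 reads) and 3.18 RPKM (201 reads).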
